A study of Mus musculus with 12 samples.

Results

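Expression of the Hox genes was read in muscle from the lower abdomen of male FVB/N mice aged 1 month. The platform was an Illumina mouse bead array, a 1-colour design on which biotinylated cRNA binds probes. Most probes carry 1 gene symbol, and a gene can have several probes. AromhumH mice carry human aromatase, expressed at a higher level, and had 4 arrays. AromhumL mice carry the same kind of humanized aromatase transgene, expressed at a lower level, and had 4 arrays. WT mice served as controls and had 4 arrays. Aromatase converts androgens to oestrogens, and the series title names abdominal muscle atrophy, fibrosis and inguinal herniation in males as its subject. The promoter that drives the transgene is not given in the sources used here, and no aromatase probe was analysed here, so the transgene itself could not be checked. The labels do not state that the 4 replicates of a group were separate animals, and the p-values therefore reflect array-to-array spread, part of which may be technical.

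The members were all genes whose array symbol begins with Hoxa, Hoxb, Hoxc or Hoxd followed by a digit. The rule found 39 of the 19057 named genes of the array, with 59 probes. Of these genes 38 encode Hox proteins and 1 is the antisense gene Hoxd3os1 of the Hoxd cluster. The antisense gene had 2 probes and the protein-coding members had 57.

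Hox genes encode homeodomain transcription factors that give embryonic tissues their position along the body axis. They lie in 4 clusters, and the order of the genes along a cluster follows the order in which they act along the body: members of low-numbered paralogue groups, at the 3′ end, act in the hindbrain and neck, and those of high-numbered groups, at the 5′ end, act in the lumbar and sacral region, the distal limb and the genital tract. Connective tissue cells and muscle precursors of the adult keep part of this pattern. Hox proteins bind DNA together with Pbx and Meis cofactors. Polycomb group proteins hold silent Hox genes off and Trithorax group proteins keep active ones on.

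Detection decided which members could be described. A probe counted as detected on an array when its detection p-value, the deposited chance that background alone gives such a signal, was under 0.05. It was tested when that held on at least 4 of the 12 arrays. On this rule 27 of the 59 Hox probes were detected, of which 26 belonged to protein-coding members, and 32 were not. This share, 45.8%, stood beside 46.6% for all probes with 1 symbol and 42.0% for all probes of the array. At the level of genes, 21 of 38 protein-coding Hox members had a detected probe, 55.3% against 55.5% of all genes on the array. Of the 59 probes, 19 were detected on all 12 arrays, as 31.4% of all probes were, 9 on 1 to 3 arrays and 23 on none. Probes differ in brightness for reasons other than abundance, so signals of different probes were not set against each other, and the presence of a paralogue group is read from detection alone.

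**Figure D1:**
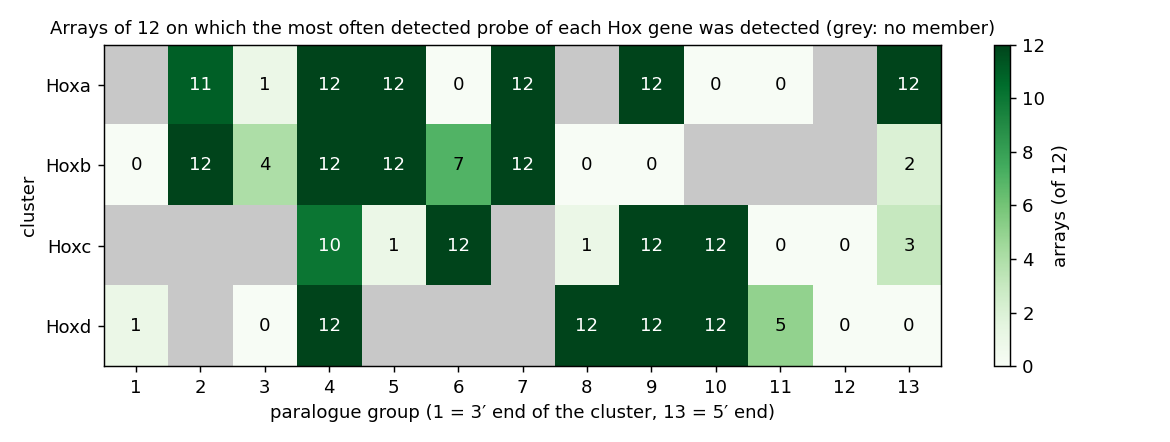
Number of arrays, of 12, on which the most often detected probe of each Hox gene was detected, with the 4 clusters as rows and the 13 paralogue groups as columns, ordered from the 3′ to the 5′ end. Green deepens with the number of arrays, and grey cells hold no member. The Hoxb row is filled from group 2 to group 7, the Hoxc and Hoxd rows reach group 10 on all 12 arrays, and groups 1 and 12 hold no gene above 1 array.

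The detected genes covered the middle of the clusters most fully. Among anterior members, of paralogue groups 1 to 3, 3 of 7 genes were detected. Among central members, of groups 4 to 8, 11 of 15 were detected, and 9 of these on all 12 arrays. Among posterior members, of groups 9 to 13, 7 of 16 were detected, and 6 of these on all 12 arrays. Group 4, which patterns the neck vertebrae, was complete with 4 of 4 genes. Groups 2 and 7 were complete with 2 of 2 genes each, while neither group 1 nor group 12 had a detected member among the 2 genes with a probe in each.

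The clusters differed in which stretch was detected. In the Hoxa cluster, on chromosome 6, 6 of 10 genes were detected: Hoxa2, Hoxa4, Hoxa5, Hoxa7, Hoxa9 and Hoxa13. The undetected genes Hoxa6, Hoxa10 and Hoxa11, each detected on 0 arrays, lay between them. In the Hoxb cluster, on chromosome 11, 6 of 10 were detected, and they formed the unbroken run Hoxb2, Hoxb3, Hoxb4, Hoxb5, Hoxb6 and Hoxb7. In the Hoxc cluster, on chromosome 15, 4 of 9 were detected, namely Hoxc4, Hoxc6, Hoxc9 and Hoxc10. In the Hoxd cluster, on chromosome 2, 5 of 9 were detected, namely Hoxd4, Hoxd8, Hoxd9, Hoxd10 and Hoxd11. The undetected Hoxd12 and Hoxd13 close that cluster at its 5′ end, and Hoxd13 is known for patterning the digits.

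At the posterior edge the picture depended on the probe. Hoxa13, known for patterning the digits, the hindgut outlet and the external genitalia, had 3 probes. One was detected on 12 of 12 arrays and the other 2 on 0 arrays. The detected probe read 83.9 to 106.5 raw intensity units over the 12 arrays, with a detection p of up to 0.0427. The 2 undetected probes read 72.2 to 88.0 and 78.0 to 84.9. The lowest readings of the detected probe thus fell within theirs, and its signal lies near the detection limit. No probe sequence was used here, so which transcript each of the 3 probes reads was not tested. Hoxb13 was detected on 2 arrays, both AromhumL, and Hoxc13 on 3 arrays, 1 AromhumL and 2 WT. The posterior members Hoxb9, Hoxc11 and Hoxc12 were detected on 0 arrays.

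Detection counts of the 3 groups overlapped. Of the 38 genes, 18 were detected on all 4 AromhumH arrays, 16 on all 4 AromhumL arrays and 17 on all 4 WT arrays. The number of Hox probes detected per array ran 23 to 28 in AromhumH, 23 to 26 in AromhumL and 24 to 27 in WT. Only 5 detected genes missed some arrays. Hoxa2 was detected on 11 arrays, missing 1 AromhumL array. Hoxc4 was detected on 4 AromhumH, 3 AromhumL and 3 WT arrays. Hoxb6 was detected on 3 AromhumH, 1 AromhumL and 3 WT arrays. The brighter probe of Hoxb3 was detected on 0 AromhumH, 1 AromhumL and 3 WT arrays, and Hoxd11 on 2 AromhumH, 2 AromhumL and 1 WT array. These 5 genes lie at the detection limit, where a difference in arrays detected can come from a small difference in signal. The 6 genes seen on 1 to 3 arrays were Hoxa3, Hoxb13, Hoxc5, Hoxc8, Hoxc13 and Hoxd1, and those at 0 arrays were Hoxa6, Hoxa10, Hoxa11, Hoxb1, Hoxb8, Hoxb9, Hoxc11, Hoxc12, Hoxd3, Hoxd12 and Hoxd13.

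The array as a whole gave 17658 to 18867 detected probes per array in AromhumH, 17198 to 17903 in AromhumL and 17683 to 18611 in WT. Raw intensities averaged 296 to 373 on AromhumH arrays, 222 to 274 on AromhumL arrays and 267 to 362 on WT arrays, so AromhumL arrays were dimmer than AromhumH arrays. Arrays of a group correlated at 0.976 to 0.988 on the normalised log2 scale. The tissue label fitted its markers: 11 of 11 skeletal muscle fibre markers with a probe were detected, and their mean deviation from the overall mean lay at -0.01 to 0.02 in AromhumH, -0.06 to -0.01 in AromhumL and -0.01 to 0.05 in WT (log2). Of 9 markers of the genital tract and urothelium, 2 were detected, Insl3 on 12 arrays and Upk1a on 7. Pax2 and Pax8 were among those not detected. Other cell types did move between groups, as given beside the Hox values.

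Whether aromatase dose went with a change in Hox expression was tested in 3 comparisons by limma over all 19004 detected probes of the array. No Hox probe passed in any of them, that is, reached an adjusted p-value under 0.05. In AromhumH against WT 0 of 27 Hox probes were called, beside 0.752% of all tested probes. In AromhumL against WT 0 of 27 were called, beside 0% of all tested probes. In AromhumH against AromhumL 0 of 27 were called, beside 4.74% of all tested probes. At these shares a count of 0 among 27 probes is near the background in all 3 comparisons, and it is no result about Hox genes as a family.

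The same held without the adjustment. An unadjusted p-value under 0.05 was found for 2 of 27 Hox probes in AromhumH against WT, 7.41% beside 15.8% of all probes. It was found for 1 of 27 in AromhumL against WT, 3.7% beside 7.64%. It was found for 4 of 27 in AromhumH against AromhumL, 14.8% beside 24.3%. In each comparison the Hox share was below that of the array, and with counts this small no difference from the array is claimed.

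The sizes were small too. Log2 differences of Hox probes ranged from -0.50 to 0.43 in AromhumH minus WT, with a median of -0.04 beside -0.01 for all tested probes. They ranged from -0.47 to 0.28 in AromhumL minus WT, with a median of -0.09 beside 0.00. They ranged from -0.33 to 0.56 in AromhumH minus AromhumL, with a median of -0.01 beside -0.01. The median absolute difference was 0.16, 0.15 and 0.14 for Hox probes in these 3 comparisons, beside 0.16, 0.14 and 0.20 for all probes. Signs were mixed, with 12 Hox probes above 0 and 15 below in AromhumH minus WT, 10 and 17 in AromhumL minus WT, and 13 and 14 in AromhumH minus AromhumL.

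The precision of 4 arrays a group set what could be seen. The 95% interval of a Hox probe's difference had a median half-width of 0.37 and a largest half-width of 0.54 (log2). Both ends of the interval lay within 1 log2 unit of 0 for 26 of 27 Hox probes in AromhumH minus WT, 27 in AromhumL minus WT and 26 in AromhumH minus AromhumL. Both ends lay within a 1.5-fold difference for 15, 19 and 17 probes. A change of over 1 log2 unit was thus outside the interval for nearly every Hox probe measured, while changes below 1.5-fold stayed inside it for many. The comparisons are linked: the first 2 share the WT arrays, and the comparison of AromhumH with AromhumL shares arrays with both.

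**Figure D2:**
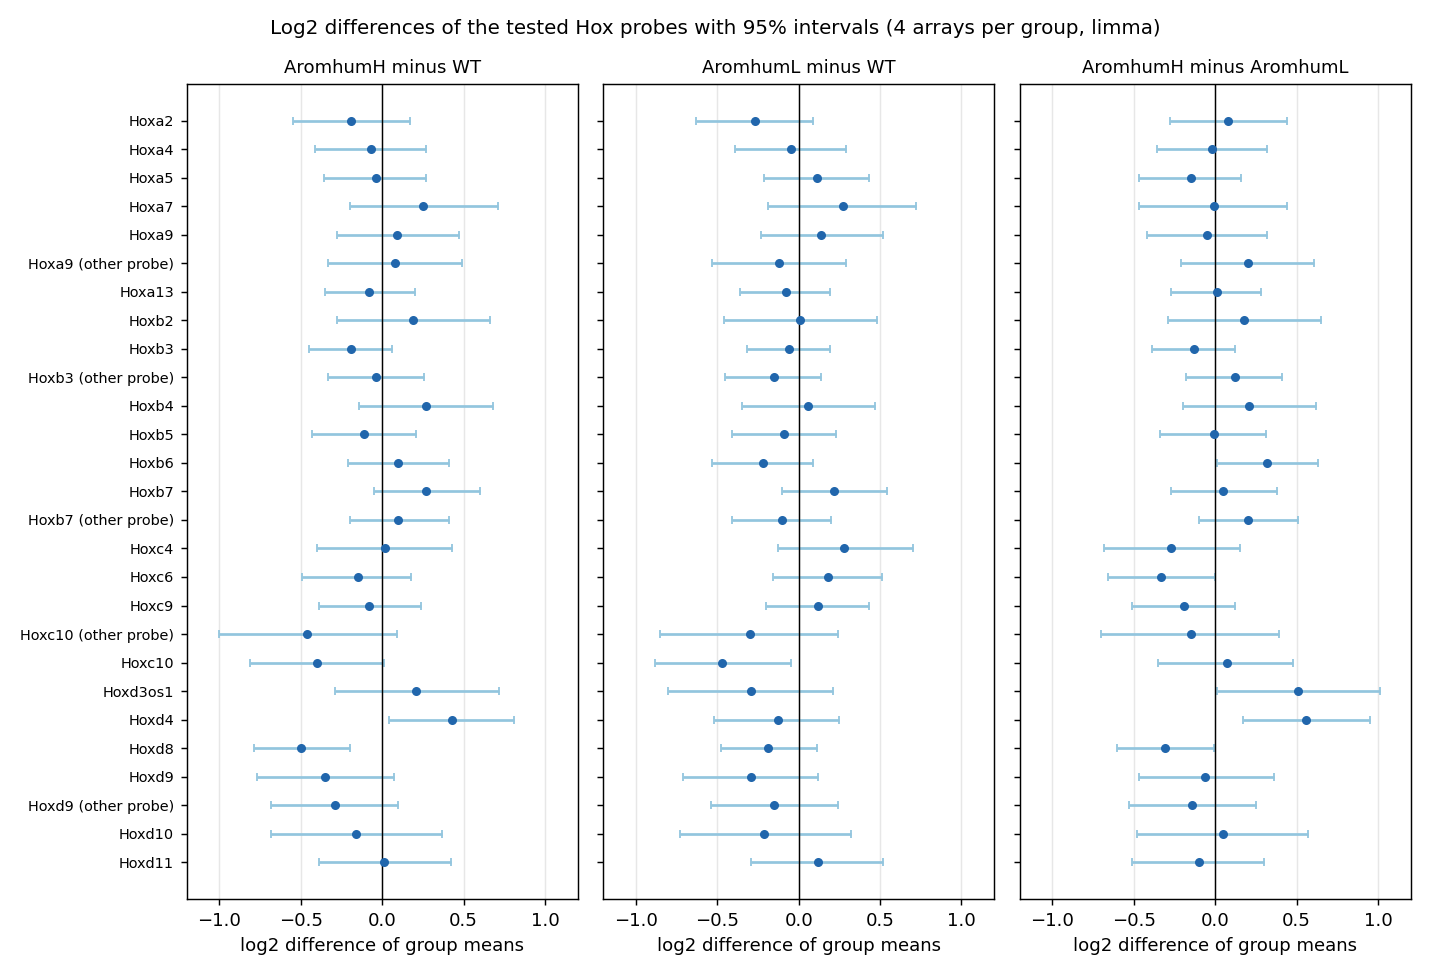
Log2 difference of group means (points) with its 95% interval (bars) for each of the 27 tested Hox probes, in order of cluster and paralogue group, for AromhumH minus WT, AromhumL minus WT and AromhumH minus AromhumL. Positive values are higher in the group named first. Hoxd8 at -0.50 and Hoxd4 at 0.43 are the 2 probes whose interval does not reach 0 in AromhumH minus WT.

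The smallest p-value of a Hox gene in AromhumH against WT belonged to Hoxd8, a central member of the Hoxd cluster. Hoxd8 read 9.22, 9.55, 9.54 and 9.12 in AromhumH, 9.79, 9.58, 9.68 and 9.61 in AromhumL, and 10.01, 9.62, 9.82 and 9.96 in WT (normalised log2 intensity). Every AromhumH array lay below every AromhumL and every WT array, while AromhumL and WT overlapped. The 4 AromhumH arrays averaged 9.36 ± 0.22 (SD), the 4 AromhumL arrays 9.66 ± 0.09 and the 4 WT arrays 9.85 ± 0.17. AromhumH minus WT was -0.50 ± 0.139 (SE), a fold of 0.708 with a 95% interval of 0.577 to 0.869, at an unadjusted p of 0.00255 and an adjusted p of 0.102 by limma. AromhumL minus WT was -0.19, at an adjusted p of 0.726 by limma. AromhumH minus AromhumL was -0.31, with an interval from -0.60 to -0.01 and an adjusted p of 0.185 by limma. Hoxd8 was the 1 Hox probe of 27 whose AromhumH arrays all lay below all WT arrays, a state found in 3.62% of all tested probes, and no Hox probe had all AromhumH arrays above, against 4.45%. It was also the 1 Hox probe wholly lower in AromhumH than in AromhumL, against 7.76% of all probes, and none was wholly higher, against 7.15%. No Hox probe separated AromhumL from WT, against 2.17% of all probes above and 1.73% below.

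Hoxd4, which lies towards the 3′ end of the cluster from Hoxd8 and takes part in patterning the neck vertebrae, had a value of the opposite sign. It read 7.21, 7.09, 6.92 and 7.56 in AromhumH, 6.67, 6.50, 6.39 and 6.98 in AromhumL, and 6.38, 7.08, 6.72 and 6.89 in WT. Of the 4 AromhumH arrays 3 exceeded every other array, and 1 lay within both other groups. AromhumH minus WT was 0.43 ± 0.182 (SE), a fold of 1.35 with a 95% interval of 1.03 to 1.76, at an unadjusted p of 0.0313 and an adjusted p of 0.262 by limma. AromhumL minus WT was -0.13, at an adjusted p of 0.865 by limma. AromhumH minus AromhumL was 0.56, a fold of 1.47 with an interval of 1.13 to 1.93, at an adjusted p of 0.0792 by limma. This was the lowest adjusted p of any Hox probe in the 3 comparisons. Without AromhumH replicate 3 the same difference was 0.65 at an adjusted p of 0.0481 by limma, the 1 setting of those tried in which a Hox probe was called.

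The promoters of these 2 genes, which had the smallest p-values of the family, are shown from 250 bases before to 50 after the start. They are RefSeq sequences on GRCm38.p6, both on the plus strand, printed 5′ to 3′. Capitals mark the half-site of the oestrogen response element, GGTCA, searched on both strands (TGACC on the opposite one).

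Hoxd8 (chr2:74704365-74704664): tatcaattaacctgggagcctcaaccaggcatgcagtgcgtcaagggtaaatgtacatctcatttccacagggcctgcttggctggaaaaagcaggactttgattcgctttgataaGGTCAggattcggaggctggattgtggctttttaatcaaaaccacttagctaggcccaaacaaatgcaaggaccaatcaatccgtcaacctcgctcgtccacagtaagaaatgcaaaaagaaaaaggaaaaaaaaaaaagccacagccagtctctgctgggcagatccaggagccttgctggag

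Hoxd4 (chr2:74721728-74722027): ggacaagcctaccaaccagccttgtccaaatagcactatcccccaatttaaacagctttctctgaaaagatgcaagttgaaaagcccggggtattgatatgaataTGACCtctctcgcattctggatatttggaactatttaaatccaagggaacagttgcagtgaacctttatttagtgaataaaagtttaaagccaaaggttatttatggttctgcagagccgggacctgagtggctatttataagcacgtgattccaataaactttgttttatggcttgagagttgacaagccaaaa

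Each window held 1 half-site. A match of 5 letters is common, and 40.5% of the 32851 promoters in the table held one. Of the 39 members, 23 had a promoter in the table, with 25 promoters in all, and 12 of these 25 held the half-site. The whole palindromic response element, in which the half-site and its reverse complement stand 3 bases apart and which therefore also counts as a half-site, was in none of the 25 and in 0.07% of all promoters. The Pbx and Hox composite motif, TGATTNAT, was in 2 of the 25, those of Hoxa2 and Hoxd11, and in 3.22% of all promoters. The Hoxd8 window held 6 CpG and the Hoxd4 window 4, beside a median of 7 over all promoters, and their GC content was 46.7% and 39.7% beside a median of 52.7%. These matches describe the letters of the windows, and binding was not measured.

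The other members of the Hoxd cluster lay between these values. Along the cluster from the 3′ end, AromhumH minus WT was 0.43 for Hoxd4, -0.50 for Hoxd8, -0.35 for Hoxd9, -0.16 for Hoxd10 and 0.01 for Hoxd11, so the values changed sign along the cluster. Hoxd9, which acts in the limbs and the lumbosacral region, read 8.41, 8.18, 8.12 and 8.39 in AromhumH, 8.24, 8.45, 7.91 and 8.72 in AromhumL, and 8.56, 8.36, 8.40 and 9.19 in WT. The AromhumH and WT arrays overlapped between 8.36 and 8.41, and the difference from WT had an adjusted p of 0.411 by limma. Without WT replicate 4, which read 9.19, the Hoxd9 difference was -0.16. The other Hoxd9 probe gave -0.29 in AromhumH minus WT. Hoxd10, known for hindlimb motor neuron identity, read 5.08 to 5.79 in AromhumH, 4.90 to 5.94 in AromhumL and 5.18 to 6.30 in WT. Hoxd11, which shapes the forearm and the kidney, was near the detection limit at 4.77, 4.39, 4.71 and 4.61 in AromhumH, 5.19, 4.43, 4.87 and 4.41 in AromhumL, and 4.36, 5.05, 4.57 and 4.45 in WT. The antisense gene Hoxd3os1 read 5.78, 5.07, 5.22 and 5.53 in AromhumH, 4.57, 4.90, 4.88 and 5.21 in AromhumL, and 4.48, 5.08, 5.45 and 5.74 in WT. AromhumH minus AromhumL for Hoxd3os1 was 0.51, at an adjusted p of 0.198 by limma, while Hoxd3 itself was detected on 0 arrays.

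In the Hoxc cluster, Hoxc10 had the widest difference from WT. Hoxc10, a group 10 member expressed in the lumbar trunk and the hindlimb, read 8.63, 9.21, 9.01 and 8.71 in AromhumH, 9.36, 8.74, 8.47 and 8.72 in AromhumL, and 9.32, 8.98, 9.26 and 9.60 in WT. The WT arrays were high, and both transgenic groups overlapped them. AromhumH minus WT was -0.40 ± 0.195 (SE), with a 95% interval of -0.81 to 0.01 and an adjusted p of 0.335 by limma. AromhumL minus WT was -0.47, with an interval of -0.88 to -0.05 and an adjusted p of 0.653 by limma, and this was the 1 Hox probe under an unadjusted p of 0.05 in that comparison. The other Hoxc10 probe gave -0.46 in AromhumH minus WT and -0.30 in AromhumL minus WT. Hoxc6, which marks the level of the forelimb, read 10.45 to 11.05 in AromhumH, 10.95 to 11.32 in AromhumL and 10.71 to 11.18 in WT, and its AromhumH minus AromhumL difference was -0.33 at an adjusted p of 0.21 by limma. Hoxc9, which sets thoracic identity in the spinal cord, stayed within 10.33 to 10.57 in AromhumH, 10.26 to 10.89 in AromhumL and 10.36 to 10.75 in WT. Hoxc4 read 4.89, 4.75, 4.92 and 4.92 in AromhumH, 5.51, 5.47, 4.46 and 5.10 in AromhumL, and 4.60, 4.74, 5.07 and 5.0 in WT, with the widest scatter in AromhumL.

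The Hoxb genes, a run from group 2 to group 7, held mixed signs around 0. Hoxb7, a thoracic member, read 7.38, 6.85, 7.09 and 7.13 in AromhumH, 6.86, 7.11, 7.18 and 7.09 in AromhumL, and 6.75, 7.20, 6.77 and 6.66 in WT. Of the 4 WT arrays 3 were lower than every transgenic array, and 1 lay within them. AromhumH minus WT for Hoxb7 was 0.27, with an interval of -0.05 to 0.60 and an adjusted p of 0.407 by limma. The other Hoxb7 probe had AromhumL minus WT at -0.10, against 0.22 for the first, so the 2 probes differed in sign. Hoxb4, known for supporting blood stem cells, read 6.78, 6.93, 6.96 and 6.76 in AromhumH, 6.99, 6.86, 6.29 and 6.46 in AromhumL, and 6.14, 6.93, 6.90 and 6.38 in WT. The AromhumH arrays lay close together at the upper end of the WT values. Hoxb2, which acts in the hindbrain, read 5.85, 5.30, 5.05 and 5.71 in AromhumH, 4.78, 5.81, 5.19 and 5.41 in AromhumL, and 5.24, 5.71, 5.10 and 5.11 in WT. Hoxb5 read 5.96 to 6.30 in AromhumH, 5.87 to 6.37 in AromhumL and 6.07 to 6.42 in WT, so that all 3 groups overlapped. Hoxb6 read 4.61 to 5.07 in AromhumH, 4.30 to 4.75 in AromhumL and 4.47 to 4.79 in WT, and AromhumH minus AromhumL had an adjusted p of 0.189 by limma. Since only 1 AromhumL array detected Hoxb6, no fold is read from it.

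Hoxb3, an anterior member, was not detected on any AromhumH array by its brighter probe. That probe read 4.55, 4.40, 4.54 and 4.48 in AromhumH, 4.71, 4.70, 4.55 and 4.55 in AromhumL, and 4.78, 4.67, 4.80 and 4.49 in WT. The probe passed the filter through 3 WT arrays and 1 AromhumL array, and AromhumH has only an upper limit here. The AromhumH and WT arrays overlapped, the adjusted p was 0.455 by limma, and no fold is read from it. A second Hoxb3 probe was detected on 2 AromhumH, 0 AromhumL and 2 WT arrays and gave -0.04 in AromhumH minus WT. Of the other 2 probes, 1 was detected on 1 array and 1 on 0.

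The Hoxa genes had values on both sides of 0. Hoxa7, a thoracic member, read 8.85, 8.29, 8.42 and 9.01 in AromhumH, 8.64, 8.90, 8.32 and 8.78 in AromhumL, and 8.09, 9.03, 8.28 and 8.16 in WT. Its WT arrays spanned the values of both transgenic groups, through 1 high array. Hoxa2, which patterns the second pharyngeal arch, read 4.86, 5.01, 4.75 and 5.16 in AromhumH, 4.39, 4.94, 4.99 and 5.12 in AromhumL, and 5.42, 4.98, 5.16 and 4.96 in WT. Hoxa13 read 5.02, 4.89, 5.19 and 4.88 in AromhumH, 5.03, 5.13, 4.99 and 4.81 in AromhumL, and 5.25, 4.96, 4.97 and 5.11 in WT. Both genes overlapped in all 3 groups, and Hoxa13 differed from WT by -0.08 in AromhumH, at an adjusted p of 0.828 by limma. Of the rest, Hoxa4 and Hoxa5, which act at the border of neck and thorax, and Hoxa9, a posterior member, differed from WT by -0.07, -0.04 and 0.09 in AromhumH. In AromhumL minus WT the same genes were at -0.05, 0.11 and 0.14. The other detected Hoxa9 probe gave -0.12 in AromhumL minus WT, the opposite sign.

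**Figure D3:**
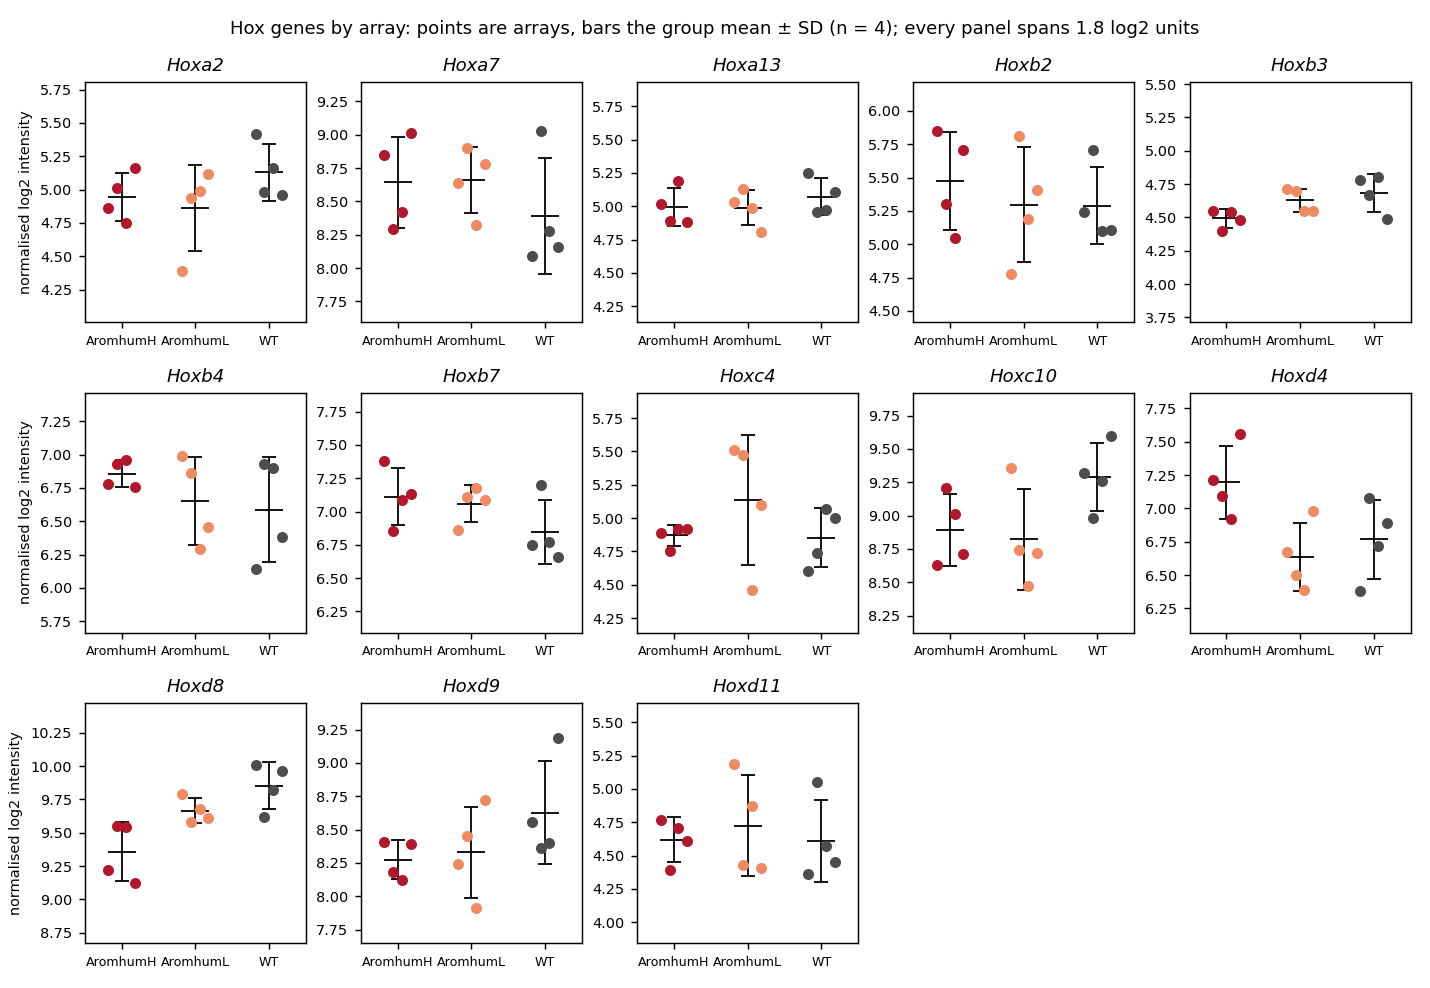
Normalised log2 intensity of 13 Hox genes on each array (points), with the group mean and SD (bars, n = 4), for AromhumH, AromhumL and WT. All panels span 1.8 log2 units but start at different levels, and levels of different genes are not comparable. In the Hoxd8 panel the AromhumH points, at 9.12 to 9.55, lie below all WT points, at 9.62 to 10.01, and in the other 12 panels AromhumH and WT overlap.

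Grouped by position, every class of Hox genes had members on both sides of 0 in each comparison, and the medians lay between -0.23 and 0.15. With 1 probe per gene, the anterior class had a median AromhumH minus WT difference of -0.19 over 3 genes, the central class 0.02 over 11 genes and the posterior class -0.08 over 7 genes. In AromhumL minus WT the medians were -0.06, 0.06 and -0.08, and in AromhumH minus AromhumL they were 0.08, -0.01 and -0.05. By cluster, AromhumH minus WT had a median of -0.06 for Hoxa, 0.14 for Hoxb, -0.12 for Hoxc and -0.16 for Hoxd. In AromhumL minus WT they were 0.03 for Hoxa, -0.03 for Hoxb, 0.15 for Hoxc and -0.19 for Hoxd. In AromhumH minus AromhumL they were -0.02 for Hoxa, 0.12 for Hoxb, -0.23 for Hoxc, with 3 of 4 genes below 0, and -0.06 for Hoxd. These are descriptions of 3 to 11 genes each, and no test was run on them. The anterior class includes Hoxb3, whose probe was detected on 0 AromhumH arrays, so no fold is read from its median. Hoxb6 in the central class and Hoxd11 in the posterior class also lie at the detection limit.

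For 5 genes, a pair of detected probes showed how far a Hox reading repeats across the 12 arrays. The Hoxc10 probes moved together, with Pearson's r of 0.89 and Spearman's rho of 0.94 (permutation test, adjusted over the 5 genes, p = 0.00015 and 0.0002). Leaving out the 2 arrays farthest from the median gave 0.83, and deviations from the group means gave 0.91. The Hoxd9 probes had an r of 0.68 (permutation test, raw p = 0.0102, adjusted p = 0.0254) and a rho of 0.55 (adjusted p = 0.124), with an r of 0.51 without the 2 farthest arrays. For Hoxb3 r was 0.43 (permutation test, adjusted p = 0.244), and it was -0.15 without the 2 farthest arrays. For Hoxa9 r was 0.40 (permutation test, adjusted p = 0.244), and it was 0.00 without the 2 farthest arrays. For Hoxb7 r was 0.00 (permutation test, adjusted p = 0.988). Deviations from the group means gave 0.61 for Hoxd9, 0.62 for Hoxb3, 0.48 for Hoxa9 and -0.06 for Hoxb7. Differences between arrays thus repeated on a second probe for Hoxc10 and less so for Hoxd9, and did not pass the test for Hoxa9, Hoxb3 and Hoxb7. Raw brightness differed between arrays, and the values used here were quantile-normalised. Whether an effect shared by the probes of an array remains in them was not tested.

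**Figure D4:**
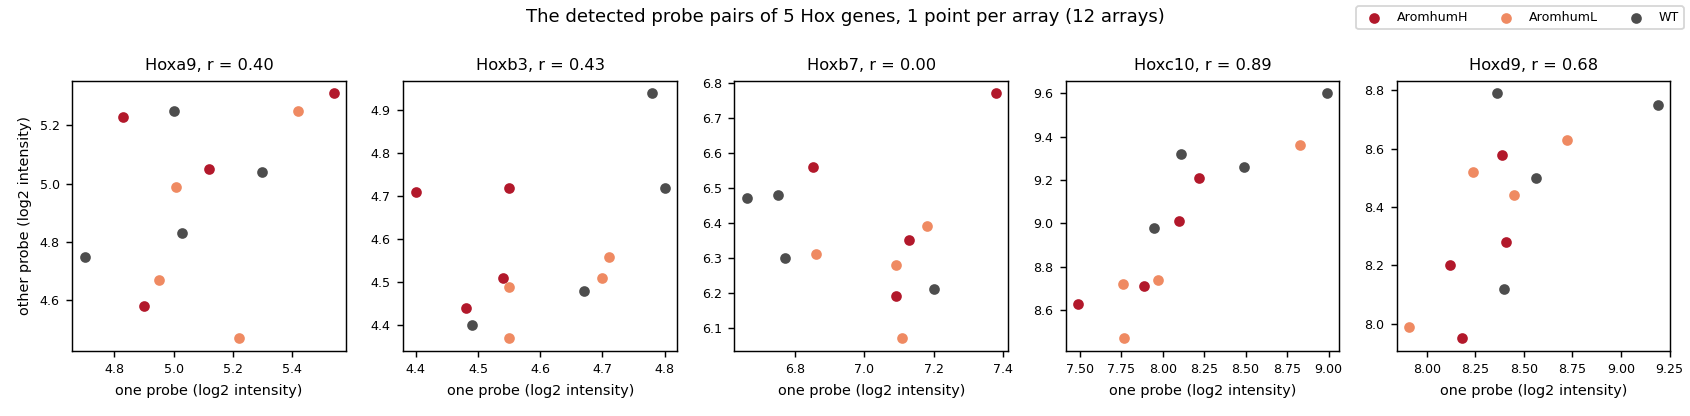
Normalised log2 intensity of the 2 detected probes of Hoxa9, Hoxb3, Hoxb7, Hoxc10 and Hoxd9, with 1 point per array and colours for AromhumH, AromhumL and WT. The points of Hoxc10 follow a line (r = 0.89), and those of Hoxb7 do not (r = 0.00).

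Genes that work with or on Hox genes were looked at next, by lists drawn up for that purpose. Of the Hox cofactors, 5 of 8 with a probe were detected, namely Pbx2, Meis1, Meis2, Pknox1 and Pknox2, and by the brightest probe of each 0 passed the test in any comparison. Their median was 0.07 in AromhumH minus WT, -0.18 in AromhumL minus WT and 0.17 in AromhumH minus AromhumL. The smallest p in AromhumH against WT was that of Meis2, which helps Hox proteins choose their sites, at 0.12 and an adjusted p of 0.848 by limma. Its sign turned without AromhumH replicate 2, at -0.09. The 2 other detected Meis2 probes gave 0.46 and 0.47, at adjusted p-values of 0.166 and 0.256 by limma, so the Meis2 probes differed in size. The brightest probe of Meis1, a cofactor of the same family, had 0.20 in AromhumH minus AromhumL, at an adjusted p of 0.572 by limma. The other Meis1 probe had 0.75 there and was called, at an adjusted p of 0.0163 by limma. That call was lost once the brightness of each array entered the fit (adjusted p = 0.386, limma), and without any 1 of AromhumH replicates 2 and 4 and AromhumL replicate 1. It was the 1 call among 39 other detected probes of the genes on these lists in that comparison, beside 4.74% of all tested probes. Mean raw intensity did not overlap between AromhumH and AromhumL arrays. A fit with brightness therefore cannot separate brightness from group in this comparison, for Meis1 or for the calls given below. Pbx3, Pbx4 and Meis3 were not detected.

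Of the Polycomb group genes, 18 of 23 were detected and 1 was called, in AromhumH against AromhumL. With 4.74% of all tested probes called there, 1 of 18 is near the background. Bmi1, a core subunit of Polycomb repressive complex 1 that represses posterior Hox genes, fell in AromhumH against AromhumL by 0.86 ± 0.192 (log2, SE), at an adjusted p of 0.0241 by limma. It had -0.50 in AromhumH minus WT, at an adjusted p of 0.215, and 0.36 in AromhumL minus WT, at an adjusted p of 0.664, both by limma. The Bmi1 call was lost with the deposited processed values (-0.20, adjusted p = 0.0626), once the brightness of each array entered the fit (-0.73, adjusted p = 0.486), without a detection filter, and without any 1 of AromhumH replicates 1, 2 and 4 and AromhumL replicates 1 and 2, all by limma. The smallest p of the list in AromhumH against WT was that of Rbbp7, a histone-binding subunit of several chromatin complexes, at -0.82 and an adjusted p of 0.116 by limma. Its 3 other detected probes gave -0.70, -0.45 and -0.18, and without AromhumH replicate 3 the first reached an adjusted p of 0.0291 at -1.05. The median of the list was -0.03 in AromhumH minus WT and -0.08 in AromhumH minus AromhumL. Of the Trithorax group and the demethylases that oppose Polycomb, 10 of 10 were detected and 0 were called in any comparison. With 0.752%, 0% and 4.74% of all tested probes called in the 3 comparisons, 0 of 10 is near the background. Kdm6a, which removes the Polycomb mark, had -0.23 in AromhumH minus WT at an adjusted p of 0.582 by limma.

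Among axial patterning factors and genes of the retinoic acid pathway, which sets Hox borders in the embryo, 11 of 19 were detected and 0 were called. With 0.752%, 0% and 4.74% of all tested probes called in the 3 comparisons, 0 of 11 is near the background. Cyp26b1, an enzyme that breaks down retinoic acid, had -0.48 in AromhumH minus WT at an adjusted p of 0.344 by limma, and it was detected on 4 arrays. Among other transcription factors of limb and body wall position, 18 of 27 were detected and 1 was called, again in AromhumH against AromhumL, where 1 of 18 is near the 4.74% of all tested probes. Tbx15, a T-box factor of limb and body wall mesenchyme and of fast muscle fibres, fell in AromhumH against AromhumL by 0.77 ± 0.186 (log2, SE), at an adjusted p of 0.0321 by limma. Against WT it had -0.74 in AromhumH at an adjusted p of 0.0758, and 0.03 in AromhumL at an adjusted p of 0.98, both by limma. The Tbx15 call was lost once the brightness of each array entered the fit (-0.86, adjusted p = 0.453), without a detection filter, and without any 1 of AromhumH replicates 1, 2 and 4 or any 1 AromhumL array, all by limma. Without AromhumH replicate 3 the difference from WT was called as well, at -0.89 and an adjusted p of 0.0242 by limma. Tbx5 and Pitx1, which mark the forelimb and the hindlimb, were not detected, while Tbx4, also of the hindlimb, was detected on 12 arrays.

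The genes that flank the clusters were looked at as well. Of 10 with a probe 6 were detected, and 0 were called in any comparison, with a median of -0.12 in AromhumH minus WT. Lnpk, near the 5′ end of the Hoxd cluster, had the smallest p, at -0.38 and an adjusted p of 0.18 by limma. Skap2, beside the Hoxa cluster, had 0.32, and the other 5 were below 0.

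Markers of other cell types moved in the same arrays. Of 5 mesothelial markers with a probe 3 rose in AromhumH against WT, beside 0.553% of all tested probes that rose, and they included Msln, a surface protein of mesothelium, at 1.92 and Upk1b, a uroplakin, at 1.83 (adjusted p = 0.00861 and 0.0176, limma). The Upk1b call was lost with the deposited processed values, without a detection filter, and without WT replicate 1 or AromhumH replicate 2. The mean deviation of this list ran from 0.56 to 1.40 on AromhumH arrays and from -1.04 to 0.08 on AromhumL arrays, and no WT array was above -0.19, so AromhumH overlapped neither group. Of 4 detected simple epithelial markers 3 rose, with Krt8, a keratin of simple epithelia, at 2.13 (adjusted p = 0.00861, limma). Without a detection filter, neither Msln nor Krt8 was called (adjusted p = 0.0757 for each, limma). Fibroblast markers had 0 of 11 called in AromhumH against WT and a mean deviation of 0.01 to 0.52 in AromhumH, -0.57 to -0.04 in AromhumL and -0.37 to 0.30 in WT. Adipocyte markers had 0 of 6 called, and their deviation ran from -1.07 to 1.38 in AromhumH, from -0.50 to 0.23 in AromhumL and from -0.15 to 0.86 in WT. Of these 6 genes 0 lay above 0 in AromhumH minus WT, with a median of -0.77. The same held in AromhumL minus WT, with a median of -0.59, while the arrays of the 3 groups overlapped. Hox genes are expressed by several of these cell types, and in whole tissue fewer cells of a type and less RNA per cell cannot be told apart. The part of these markers in the Hoxd8 and Hoxd4 values was not tested. By the brightest probe of each gene, skeletal muscle fibre markers had 0 of 11 called in all 3 comparisons. The shares of all tested probes were 0.752% in AromhumH against WT, 0% in AromhumL against WT and 4.74% in AromhumH against AromhumL. A count of 0 among 11 is near these shares. In AromhumH minus AromhumL another Actn3 probe had -1.21 and another Ttn probe -0.68, both called (adjusted p = 0.0161 and 0.0175, limma). The brightest probes of these genes had -0.10 and -0.01 there. The remaining Ttn probes ran from -0.64 to 0.33 and were not called.

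The remaining marker lists gave 0 calls in AromhumH against WT and in AromhumL against WT, beside 0.752% and 0% of all tested probes. In AromhumH against AromhumL the brightest probe of each gene was counted. There 4 of 5 mesothelial, 3 of 4 simple epithelial and 2 of 11 fibroblast markers rose. So did 1 of 4 satellite cell and 1 of 2 detected epidermal markers, beside 2.86% of all tested probes. By these probes 0 fell, beside 1.88%, while the called other probes of Actn3 and Ttn given above fell. Other probes of the fibroblast marker Lum, at 1.13, and the mesothelial marker Upk3b, at 0.75, were called and rose (adjusted p = 0.0403 and 0.0431, limma). The brightest Lum probe had 0.60 and was not called (adjusted p = 0.123, limma). With the brightness of each array in the fit, 0 of all tested probes were called in this comparison, so all of these calls were lost. Mean raw intensity did not overlap between AromhumH and AromhumL arrays, so that fit cannot separate brightness from group. Of the satellite cell list, Pax7, Pax3 and Myf5, which define muscle stem cells, were not detected. Smooth muscle, endothelial and macrophage lists had 0 calls in that comparison.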

How the data were processed

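Intensity values on a linear scale, unnormalised between arrays, were deposited for every probe, each with a detection p-value, per the file headers. A processed table, also deposited, holds log2 values as far as their range shows. It was quantile-normalised (median 7.17 over all its values) and served as an alternative. The sources used here give no scanner, slide or genome build, so slide effects were not tested. RNA was isolated with Trizol, column-cleaned, DNase-treated and biotin-labelled, per the labels' protocols. Gene symbols came from the platform annotation: of 45281 probes 34885 had 1 symbol, 18 several and 10378 none, and only those with 1 symbol were named.

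Intensities were background-corrected and quantile-normalised with neqc of limma 3.58.1 in R 4.3.3, which estimates background from the detection p-values and adds an offset of 16. The 19004 probes detected on at least 4 of 12 arrays were fitted with lmFit and eBayes over all 12 arrays (9 residual and 6.68 prior degrees of freedom), and p-values were adjusted by Benjamini-Hochberg over all 19004 probes. The script was tested on simulated data. The number of arrays limits the precision. Groups and replicate numbers came from the sample titles. Per-array values are given for the brightest probe of the 8 detected Hox genes with the smallest p in AromhumH against WT, of genes called in any comparison, and of the first and last detected gene of each cluster. From each list of related genes, called members are named, or else the member with the smallest p. Members and lists were chosen with earlier results of these data known. Promoters are from RefSeq, GRCm38.p6. Alternatives changed the background correction, the source of values, the detection filter, the probes per gene, the empirical Bayes step, a replicate block and array brightness, and left out each array in turn. Probe sequences were not analysed here.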

Additional observations from a re-analysis of the deposited data

Results flagged for a closer look

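One array value of a Hox gene stood apart from its group. Hoxc4 read 4.75 on AromhumH replicate 2, and 4.89 to 4.92 on the 3 other AromhumH arrays. The gap was 0.835 of the group's range, above Dixon's 95% limit for 4 samples. This was 1 of 39 groups of 4 arrays looked at (13 genes in 3 groups), and chance flags about 1 in 20 such groups. The signal lies near the detection limit of this probe.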

How the results depend on the processing

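Hox probes called stayed at 0 in AromhumH against WT and in AromhumL against WT under all 9 other settings and all 12 fits without 1 array (0 to 0). In AromhumH against AromhumL it was 0 under the 9 settings and 0 to 1 without 1 array: without AromhumH replicate 3, Hoxd4 was called at 0.65 (adjusted p = 0.0481, limma). Detected Hox genes numbered 21, and 16, 18 and 27 with detection on all 12 arrays, a detection p under 0.01, and 1 array as the minimum. Of 39 named Hox differences, 4 changed sign with array brightness as a covariate: Hoxc4 in AromhumH minus WT (0.00), Hoxd11 in AromhumL minus WT (-0.01), Hoxd11 in AromhumH minus AromhumL (0.06) and Hoxa7 in AromhumH minus AromhumL (0.15). Leaving out 1 array turned the sign of Hoxc4 (-0.07 to 0.08), Hoxd11 (-0.07 to 0.16) and Meis2 (-0.09 to 0.26) in AromhumH minus WT, of Hoxb2 (-0.16 to 0.18), Hoxb4 (-0.09 to 0.18) and Hoxd11 (-0.04 to 0.26) in AromhumL minus WT, and of Hoxa2 (-0.08 to 0.17), Hoxa7 (-0.14 to 0.10), Hoxa13 (-0.06 to 0.05), Hoxb7 (-0.03 to 0.14), Hoxc10 (-0.05 to 0.25), Hoxd9 (-0.20 to 0.07) and Hoxd11 (-0.21 to 0.06) in AromhumH minus AromhumL, with ranges in parentheses. None of these was called. Over all probes, calls in AromhumH against WT numbered 143, and 87 with the deposited processed values, 7 without a detection filter, 71 with brightness as a covariate and 13 to 429 without 1 array. In AromhumH against AromhumL they numbered 901, and 412, 70, 0 and 66 to 1684 in the same order. The cause was not tested. Brightness did not overlap between AromhumH and AromhumL arrays, so the fit with it cannot separate brightness from group in that comparison. With the replicate block, Hox probes called were 0 in each comparison and Hoxd4 in AromhumH minus AromhumL had an adjusted p of 0.0688. The labels give no meaning to the numbers in the titles, and they were not taken to pair the arrays: same-numbered arrays deviated together at -0.26 to 0.33, over 0.1 in 2 of 12 pairs, and 3 of 12 arrays matched their own number best. Near the detection limit, Hoxb3, Hoxb6 and Hoxd11 differ too little from background for a fold to be read.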
